A study of Danio rerio with 36 samples.

Results

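The 2 lowest concentrations of bisphenol A (BPA), 0.0483 and 0.00483 µM, were compared with their own carrier control (CC). They were chosen as the lowest 2 steps of a 10-fold dilution series that started at 48.3 µM, and with 3 libraries each and 3 CC libraries they made up 9 of the 36 libraries of the study. Every library came from a pool of 20 whole zebrafish larvae, *Danio rerio*, of the AB/Tub hybrid line, and no mutant allele is named for any group. The larvae of both exposed groups were kept in BPA for 48 h, from 72 to 120 hours postfertilization (hpf), and those of the CC in carrier alone for the same time. The CC was taken to hold the solvent DMSO only, as the methods describe it, although its labels name BPA in that place. Only larvae of normal appearance went into the pools, and each replicate number stood for a separate repeat with other clutches. A pool of whole larvae gives no value for a single animal or organ. The question was whether larvae at these concentrations could be told from the CC by their transcripts, and how small a change these libraries could have shown.

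BPA is a monomer of polycarbonate plastics and epoxy resins that binds estrogen receptors weakly and is studied as a disruptor of estrogen and thyroid signalling. In fish the hypothalamus and pituitary drive the thyroid through thyrotropin releasing hormone and thyrotropin. Deiodinases then switch thyroid hormone on or off in the tissues, where its receptors act on target genes. Estrogen receptors work as ligand-bound transcription factors, with brain aromatase and the yolk protein vitellogenin among their best known targets in fish. Cells under chemical stress call instead on heat shock proteins, on the transcription factor Atf3 and on enzymes that remove peroxides.

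The libraries held 6056692 to 16520859 reads assigned to genes, the most in replicate 3 of the CC. Values were normalized counts, which are reads divided by the size factor of the library. Replicates of 1 group differed by more than counting noise in each of 9 pairs. Of 332 markers of 17 larval cell types, 305 were above 0 in every library, among them all 26 of neurons, all 20 of skeletal muscle, all 22 of the intestine, 24 of 25 of the liver, 26 of 28 of photoreceptors and 18 of 20 of the lens. Replicate 2 of the CC stood apart from the other 8 libraries. On the first principal component, which held 26.7% of the variance, it lay at −46.1, whereas the other 8 lay between −17.7 and 21.6. The number of genes called is therefore given with and without that library, and other counts rest on all 9 libraries unless stated.

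No gene passed the test at either concentration. Expression was compared with limma on log2(value + 1) for the 17151 genes with a mean of at least 10, with the replicate number as a block. A gene was called at a Benjamini-Hochberg adjusted p-value under 0.05 and a difference of at least 1.5-fold. With the 6 exposed libraries pooled, 0 genes were called, 0% of those tested. An unadjusted p-value under 0.05 was found for 615 genes (3.59%), and for 1255 without replicate 2 of the CC. The numbers called were also 0 at 0.0483 µM and 0 at 0.00483 µM, with 493 and 547 genes under an unadjusted 0.05. A quasi-likelihood test in edgeR on the reads called 0 genes in each of these comparisons, with 620, 478 and 576 genes under an unadjusted 0.05. DESeq2 called 0 genes pooled, 0 at 0.0483 µM and 1 at 0.00483 µM, with 188, 135 and 181 genes under an unadjusted 0.05. The gene DESeq2 called, ugt5g2, had 3 reads in 1 library at 0.0483 µM, 2 in replicate 2 of the CC and 0 in the other 7 libraries.

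Most genes had intervals that bounded the difference closely. With the 6 exposed libraries pooled, the 95% interval of the difference from the CC lay inside 2-fold in both directions for 15797 genes (92.1%) and inside 1.5-fold for 11077 (64.6%). The precision grew with the level of the gene. The median half-width of the interval was 0.58 on the log2 scale for genes with a mean of 10 to 50, 0.32 for those from 50 to 200, 0.20 for those from 200 to 1000 and 0.18 above that. A fitted difference of 1.5-fold or more was seen for 289 genes, of which 270 had a mean under 50. The values of the 6 exposed libraries and the 3 CC libraries did not overlap for 203 genes (1.18%), with the exposed libraries above in 97 and below in 106. For 3 libraries against 3, as in single genes below, the share of all genes without overlap was not counted. It is larger than for 6 against 3 when groups do not differ. A missing call does not show that a gene was the same in both groups. Of genes with a mean of 10 to 50, 78.9% had intervals inside 2-fold. The share was 98.9% for genes with a mean of 1000 and over, so some genes with many reads were not bounded within 2-fold either.

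The gene with the lowest p-value in the pooled comparison was ARRDC3 (ENSDARG00000036028), which encodes an arrestin domain protein. Its normalized count was 694, 736 and 750.4 in CC replicates 1, 2 and 3, and 842 to 955, with a median of 907, in the 6 exposed libraries. All 6 exposed libraries were above the CC. The difference was small, with a log2 value of 0.31, a 95% interval of 0.16 to 0.45 and a limma adjusted p-value of 0.999 (0.000868 unadjusted). The other ARRDC3 gene (ENSDARG00000052690) overlapped between the groups, with a log2 difference of 0.04 (95% interval −0.14 to 0.22).

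Among genes with a fitted difference of at least 1.5-fold, those with the lowest p-values were looked at next, and none of them passed the test. FOXQ1, which encodes a forkhead transcription factor, was at 41.5, 32.9 and 53.9 in the CC, 21.7, 25.3 and 21.1 at 0.0483 µM and 21.3, 18.9 and 11.4 at 0.00483 µM. Every exposed library was below every CC library, by a log2 difference of −1.07 (95% interval −1.65 to −0.49). The neuropeptide gene vipb was at 38.6, 63.4 and 36.8 in the CC and 20.4 to 35.6, with a median of 26.5, in the exposed libraries. No exposed library reached the lowest CC value, and the log2 difference was −0.74. WNT7B, a Wnt ligand gene, was at 53.1, 57.3 and 45.1 in the CC and 24.3 to 35.9, with a median of 32.2, in the exposed libraries, again without overlap, and differed by −0.71. The heat shock gene hspa1b was at 26.0, 24.4 and 21.7 in the CC and 8.52 to 17.97, with a median of 11.7, in the exposed libraries. It differed by −0.91 and its groups did not overlap either, whereas it was higher at 48.3 µM, with a mean of 53.9 ± 18.4 (SD, 3 libraries).

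On the higher side, opn6b, which encodes an opsin, was at 24.1, 23.2 and 21.7 in the CC, 72.7, 54.7 and 31.7 at 0.0483 µM and 46.9, 53.5 and 18.3 at 0.00483 µM. The exposed libraries of replicates 1 and 2 were above the CC, and 1 exposed library of replicate 3 was below it. TAPT1 was at 42.4, 24.4 and 38.4 in the CC and 38.8 to 86.3, with a median of 50.2, in the exposed libraries, so that the groups overlapped, with a log2 difference of 0.65 (95% interval 0.27 to 1.04). The values of fbxo44.9, an F-box gene, were 28.0, 12.2 and 20.5 in the CC and 26.6 to 53.6, with a median of 34.9, in the exposed libraries, and it differed by 0.85. The other genes named by this rule were fhip1ab (0.60), ENSDARG00000076299 (0.75) and si:ch211-89o9.4 (−0.66), given as log2 differences. At 0.0483 µM alone, the lowest p-values belonged to opn1mw2, cdh29, RBKS, PBLD, fbxo44.8 and SARDH beside genes already named. RBKS, which encodes ribokinase, was at 20.3, 22.0 and 15.04 in the CC, 5.10, 6.08 and 8.46 at 0.0483 µM and 13.8, 13.6 and 12.6 at 0.00483 µM. All 3 libraries at 0.0483 µM were below the CC, and the log2 difference was −1.42, with an unadjusted limma p-value of 0.00161 that did not survive adjustment. PBLD differed by −1.37, fbxo44.8 by −0.83, SARDH by −0.61 and cdh29 by 0.69. At 0.00483 µM alone, chrd, which encodes the bone morphogenetic protein antagonist Chordin, was at 10.6, 6.10 and 6.27 in the CC and 21.3, 14.7 and 17.2, all 3 above the CC, with a log2 difference of 1.14. The photoreceptor gene irbpl differed by 0.63, lrp2b by −0.87, ENSDARG00000098983 by −0.70 and mylk4a, a myosin light chain kinase gene, by −0.60.

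Genes of the hormone systems in which BPA is studied were followed one by one, as part of a set of 29 genes for hormone signalling, neurons and stress, of which 21 passed the filter. No member of that set had an unadjusted p-value under 0.05 in the pooled comparison or groups that did not overlap. Their log2 differences ran from −0.37 to 0.23, and the interval lay within 2-fold for 20 and within 1.5-fold for 13. The other 8 had means under the filter.

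**Figure D1:**
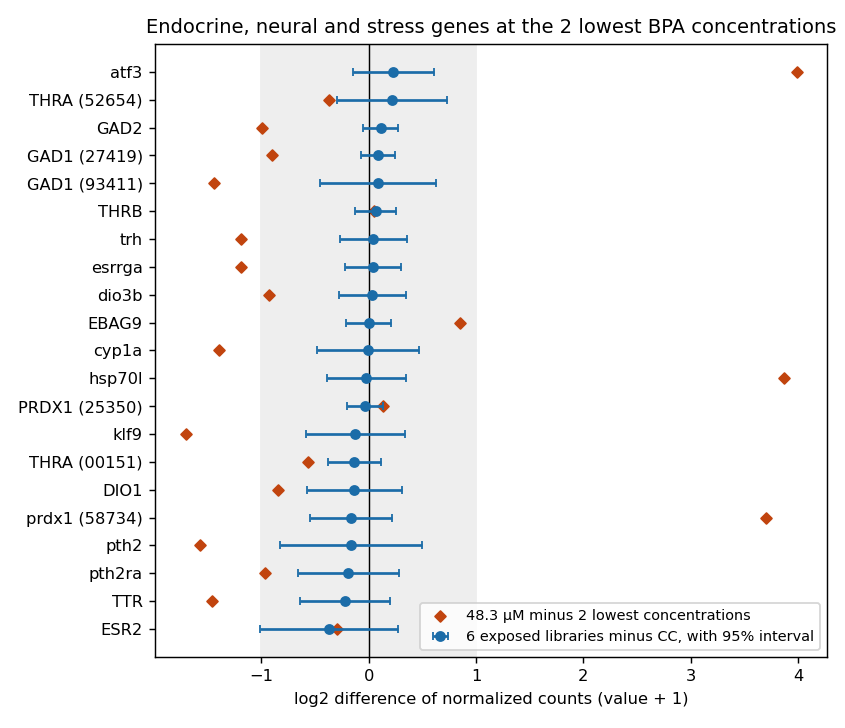
Difference between the 6 exposed libraries and the CC for the 21 tested genes of hormone signalling, neurons and stress (blue points, log2 of normalized count + 1, bars are 95% intervals from limma), beside the difference of 48.3 µM from the 2 lowest concentrations (orange diamonds). The blue points lie between −0.37 and 0.23, nearly all bars stay inside the grey 2-fold band and every bar crosses 0, whereas atf3, hsp70l and prdx1 stand far to the right at 48.3 µM; digits after repeated symbols end the gene identifier.

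No gene of estrogen signalling passed the test. ESR1, which encodes estrogen receptor alpha, was nearly silent, at 0, 2.44 and 0.418 in the CC and 1.06 to 5.24, with a median of 3.17, in the exposed libraries, which is 0 to 5 reads a library. The estrogen receptor gene ESR2 with identifier ENSDARG00000034181 was at 27.01, 35.4 and 27.2 in the CC and 14.9 to 38.3, with a median of 21.6, in the exposed libraries. The groups overlapped, and the log2 difference of −0.37 had the widest reach downward of the tested set, −1.01 to 0.27. The second ESR2 gene (ENSDARG00000016454) was under the filter, at 4.82, 3.66 and 2.09 and 3.17 to 6.86, with a median of 4.23. The aromatase gene CYP19A1 (ENSDARG00000041348) stayed under the filter. Its level was 2.89, 3.66 and 1.67 in the CC and 0 to 4.26, with a median of 2.19, in the exposed libraries. Its symbol carries no copy letter, so whether it is the brain form was not settled here. Vitellogenin vtg1, the classic sign of estrogen exposure in fish liver, was at 0.965, 0 and 0.836 in the CC and 0 to 3.196, with a median of 0.506, in the exposed libraries. It had at most 3 reads in any library, so a fall or a small rise in it was not detectable at this depth. The orphan estrogen-related receptor gene esrrga was at 236, 144 and 187 in the CC and 166 to 217, with a median of 191, in the exposed libraries, and EBAG9, an estrogen receptor binding site associated gene, was at 232, 187 and 219 and 184 to 232, with a median of 211. The groups overlapped for both, and the interval for EBAG9 was −0.21 to 0.21. Over the 6 tested genes of the estrogen list, 0 were called and the median log2 difference was −0.09, beside −0.00 over all genes tested.

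No gene of the thyroid axis passed either, and several were bounded closely. The hypothalamic hormone gene trh was at 133, 96.4 and 99.9 in the CC, 119, 95.2 and 131 at 0.0483 µM and 118, 117 and 96.1 at 0.00483 µM, and all 3 groups overlapped. Its interval of −0.27 to 0.35 lies inside 1.5-fold. TSHB, which encodes the pituitary subunit of thyrotropin, stayed under the filter with values of 0.965, 1.22 and 2.09 in the CC and 0 to 4.23, with a median of 1.17, in the exposed libraries. The receptor genes THRA (ENSDARG00000000151), THRA (ENSDARG00000052654) and THRB differed by −0.13, 0.22 and 0.07. THRB, which had the most reads of these, with values of 536, 515 and 575 in the CC and 508 to 626, with a median of 570.4, in the exposed libraries, had an interval of −0.13 to 0.26. Of the deiodinases, DIO1 was at 47.3, 72.0 and 61.8 in the CC and 39.8 to 63.9, with a median of 57.9, in the exposed libraries. DIO2, whose enzyme activates the hormone, was under the filter, at 6.75, 7.32 and 7.10 and 2.29 to 16.0, with a median of 7.53. The gene dio3b, whose enzyme inactivates thyroid hormone, was at 79.1, 73.2 and 64.3 in the CC, 66.3, 67.9 and 56.0 at 0.0483 µM and 81.0, 83.8 and 93.8 at 0.00483 µM. All 3 libraries at 0.00483 µM lay above all 3 at 0.0483 µM, and the difference between the concentrations was −0.44 with an unadjusted limma p-value of 0.022, which did not pass. The carrier protein gene TTR was at 193, 287 and 203 in the CC and 147 to 321, with a median of 184, in the exposed libraries, with a log2 difference of −0.22. PAX8, a transcription factor of the thyroid gland and kidney, had the lowest p-value of the list, at 111, 119.6 and 86.9 in the CC and 77.8 to 97.5, with a median of 82.3, in the exposed libraries, with overlap and a difference of −0.31. The thyroid list also held the parathyroid genes pth1b, pth2 and pth2ra, described below. Over its 15 tested genes, 0 were called, the log2 difference was above 0 for 4, and the median was −0.13.

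Genes of neurons and of the parathyroid peptides did not pass either. GAD1 (ENSDARG00000027419), which makes the transmitter GABA, was at 4649.7, 4091 and 4552 in the CC and 4612 to 4862, with a median of 4682, in the exposed libraries. Its interval of −0.07 to 0.24 was the narrowest of the set. Its copy GAD1 (ENSDARG00000093411) was at 21.2, 15.9 and 28.8 in the CC and 19.2 to 28.1, with a median of 22.6, in the exposed libraries. GAD2 was at 1731, 1367 and 1833 in the CC and 1626 to 2019, with a median of 1728, in the exposed libraries, with replicate 2 of the CC below all others. Of 34 tested GABA genes, 0 were called and 27 had log2 differences above 0, with a median of 0.09, which became 9 of 34 and −0.10 without replicate 2 of the CC. The direction for this list therefore depended on keeping that library, without which replicate 2 had no CC to be set against. The 54 tested genes of glutamate transport and synapses had a median of 0.06, with 41 above 0, and a median of −0.02, with 23 above 0, without that library. The parathyroid peptide gene pth2, expressed in the zebrafish brain, was at 28.9, 18.3 and 15.9 in the CC and 11.5 to 25.6, with a median of 19.0, in the exposed libraries, and its receptor pth2ra at 37.6, 36.6 and 28.8 and 24.1 to 37.0, with a median of 28.9. A further parathyroid peptide gene, pth1b, was under the filter, at 8.68, 12.2 and 8.77 and 5.29 to 11.5, with a median of 7.78. All 3 overlapped.

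Of the stress genes in the set, hsp70l, atf3 and prdx1 were high at 48.3 µM, and their values at the 2 lowest concentrations overlapped the CC. The heat shock gene hsp70l was at 81.0, 90.3 and 71.4 in the CC, 98.2, 63.8 and 82.5 at 0.0483 µM and 107, 61.8 and 73.2 at 0.00483 µM, against 1210.2 ± 386 (SD, 3 libraries) at 48.3 µM. Exposed libraries lay on both sides of the CC, and the pooled log2 difference was −0.02 (95% interval −0.39 to 0.35). For atf3 the values were 37.6, 37.8 and 46.8 in the CC, 45.9, 59.8 and 57.1 at 0.0483 µM and 43.7, 38.8 and 44.6 at 0.00483 µM, against 775 ± 68.8 at 48.3 µM. Replicates 2 and 3 at 0.0483 µM were above the CC, and the difference at that concentration was 0.40, with an interval of −0.03 to 0.83. The peroxide-removing enzyme gene prdx1 (ENSDARG00000058734) was at 64.6, 64.7 and 61.4 in the CC and 47.2 to 69.8, with a median of 56.6, in the exposed libraries, against 756 ± 128 at 48.3 µM. A gene with the capital symbol PRDX1 (ENSDARG00000025350) was at 1389, 1446 and 1239 in the CC. It was at 1233 to 1419, with a median of 1324, in the exposed libraries, with overlap in both genes. The glutathione transferase gene gstp1.1 was at most 3.196 in the exposed libraries and 4.82 in the CC, against 185 ± 128 at 48.3 µM. The xenobiotic enzyme gene cyp1a was at 27.01, 40.3 and 42.2 in the CC and 22.4 to 46.1, with a median of 38.6, in the exposed libraries, with overlap.

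**Figure D2:**
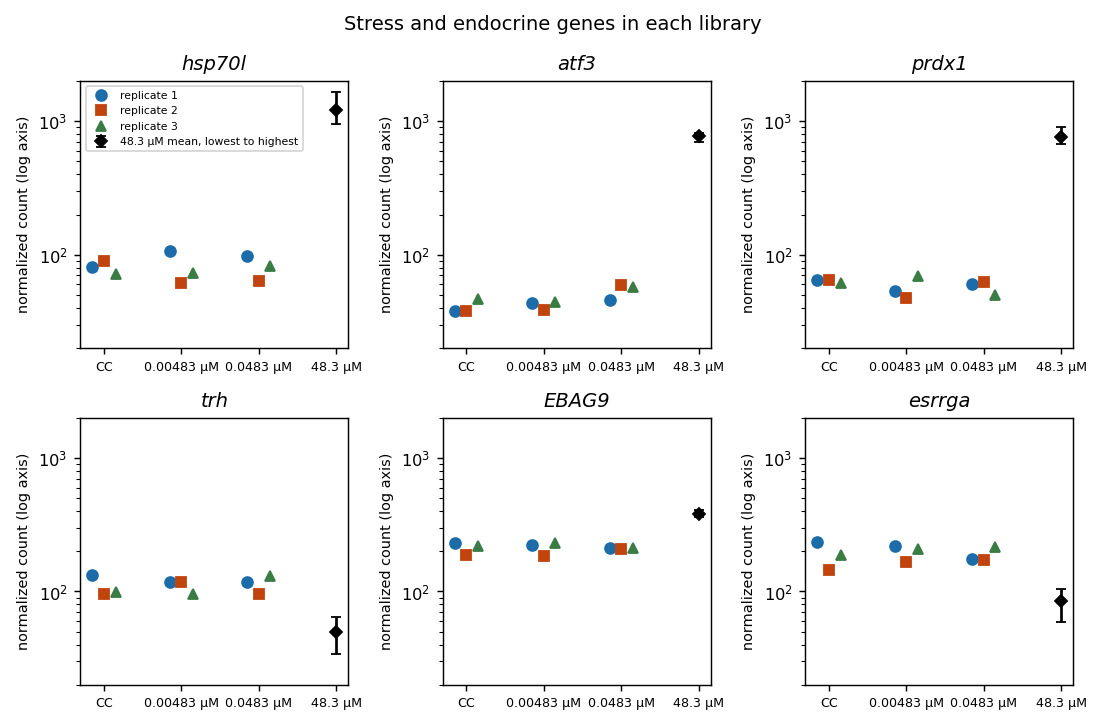
Normalized counts (log axis) of hsp70l, atf3, prdx1 (ENSDARG00000058734), trh, EBAG9 and esrrga in each CC library and each library of the 2 lowest concentrations, coloured by replicate number. Black diamonds are the mean of the 3 libraries at 48.3 µM with lines from the lowest to the highest library. The exposed points overlap the CC points in every panel, and the mean at 48.3 µM lies outside the range of the 9.

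The wider stress lists gave the same counts. Among 30 tested genes of oxidant detoxification, 31 of xenobiotic metabolism and 36 of heat shock and stress, 0 were called, and the median log2 differences were −0.02, −0.00 and −0.02. KEAP1, the sensor that restrains the oxidant response, had the lowest p-value of the first, with 224, 251 and 194 in the CC, 173 to 229, with a median of 189.7, in the exposed libraries, and a log2 difference of −0.18. The aryl hydrocarbon receptor gene ahr1b led the second, with 209, 143 and 198 in the CC and 202 to 252, with a median of 234, in the exposed libraries. The highest CC value lay above the lowest exposed value and the other CC values lay below all 6, and the difference was 0.33 (95% interval 0.10 to 0.57). ASNS, which makes asparagine and belongs to the amino acid stress response, led the third, with 33.8, 35.4 and 43.9 in the CC and 47.2 to 67.5, with a median of 49.3, in the exposed libraries. All 6 exposed libraries were above the CC, with a log2 difference of 0.48, and the 48.3 µM mean was 106 ± 21.1.

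Clock genes, globins, mitochondrial transcripts and cell cycle genes were examined in the same way, and 0 of their members were called. In the clock list, 4 of 37 tested genes had an unadjusted limma p-value under 0.05, beside 615 of 17151 over all genes tested. They were dbpb, per2, BMAL1 (ENSDARG00000035732) and tefa. BMAL1 had a log2 difference of 0.51 and tefa one of −0.23, and both were named after their values were seen. The clock output gene dbpb was at 173, 216 and 225 in the CC, 228, 291 and 254 at 0.0483 µM and 255, 308 and 240.2 at 0.00483 µM, with all 6 above the CC and a log2 difference of 0.36. The clock repressor per2 was at 3163, 3332 and 3163 in the CC and 2442 to 3070.1, with a median of 2695, in the exposed libraries, all 6 of them below the CC, with a difference of −0.25. It was singled out after its values were seen. In the globin and heme list, 9 of 11 tested genes were below 0, with a median of −0.27. The embryonic globin gene hbbe1.3 was at 99.4, 61.0 and 145 in the CC, 52.3, 51.7 and 116 at 0.0483 µM and 36.2, 61.8 and 119 at 0.00483 µM. The groups overlapped, replicate 3 was the highest in every group, and the difference was −0.53. Summed over the globin and heme list, the level was 1168, 1192 and 1995 in the CC, 996, 1079 and 1618 at 0.0483 µM and 1145, 1025 and 1406 at 0.00483 µM, so each exposed library was below the CC library of its own number. In pools of whole larvae, fewer cells of a type and less RNA per cell cannot be told apart. The 13 mitochondrial transcripts had a median of 0.02, and mt-nd4l, which had their lowest p-value, differed by 0.14. The 33 genes of DNA replication had a median of −0.11, and MCM7, which had their lowest p-value, differed by −0.18. In lipid handling, LPL, which encodes lipoprotein lipase, was at 18.3, 20.7 and 21.3 in the CC and 5.72 to 20.2, with a median of 9.18, in the exposed libraries, with overlap and a difference of −0.92. The list's median was 0.04. Of the steroid and stress hormone genes, the glucocorticoid receptor gene NR3C1 had the lowest p-value, with a log2 difference of 0.24. ESRRA led the estrogen list, with a log2 difference of 0.21, and GRIA3 the synapse list, with one of 0.30.

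Whether any gene was called depended on 1 control library. Without replicate 2 of the CC, 53 genes were called with the exposed libraries pooled (0.309% of those tested), 51 higher (0.297%) and 2 lower (0.0117%) than the CC. At 0.0483 µM the number was 49 (0.286%) and at 0.00483 µM 8 (0.0466%), all of them higher, and between the concentrations it was 0. Leaving out any 1 of the other 8 libraries gave 0 in each of these comparisons. Without replicate 2 of the CC, replicate 2 held exposed libraries only. With the block, the pooled difference then came from the other 2 replicate numbers alone. Of the 53 genes, 26 were crystallin genes by symbol, of 43 such genes tested, 9 were on the exocrine pancreas list, of 15 tested, and 0 were on a functional list. Replicate 2 of the CC was above both other CC libraries for 50 of the 51 higher genes. These genes passed only without that library, so the choice of genes favoured this count. With all 9 libraries, each of the 51 had a difference above 0 but none passed. The 51 were chosen in a fit of 8 of these 9 libraries, so their sign was not a separate check. The genes of lens, pancreas, liver and gut named from here on outside the rules for named genes were chosen after their values were seen.

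**Figure D3:**
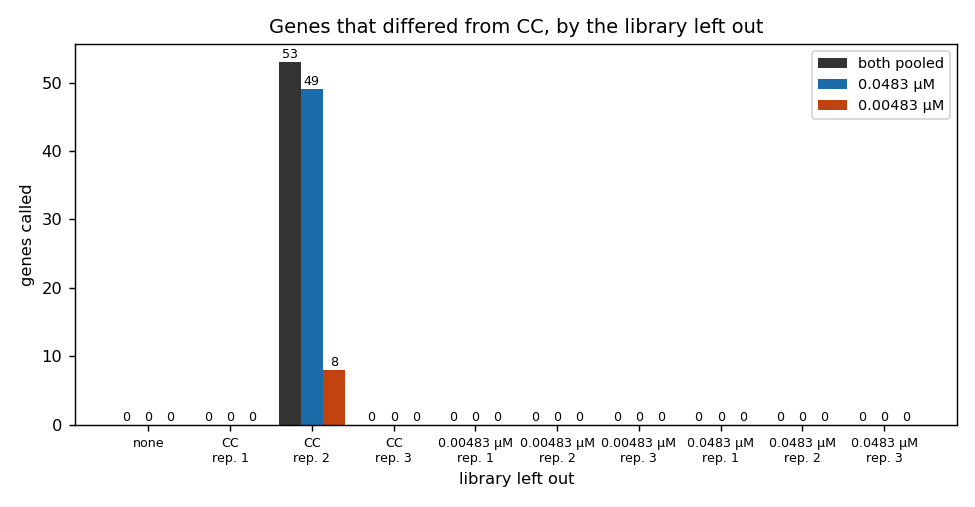
Number of genes called against the CC (adjusted p-value under 0.05 and at least 1.5-fold) when no library or 1 of the 9 libraries was left out, for the pooled exposed libraries, 0.0483 µM and 0.00483 µM. Bars are above 0 only where replicate 2 of the CC was left out, at 53, 49 and 8.

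Crystallins are the proteins that fill the lens fibres and keep them clear. Summed over 58 crystallin genes, the level was 120532, 318458 and 91245 in CC replicates 1, 2 and 3, 255821, 205115 and 134713 at 0.0483 µM and 268920, 148572 and 115600 at 0.00483 µM. Both exposed libraries were above the CC library of the same number in replicates 1 and 3 and below it in replicate 2. For the lens marker list the ratio to the CC library of the same number was 2.08, 0.661 and 1.45 at 0.0483 µM and 2.15, 0.485 and 1.27 at 0.00483 µM in replicates 1, 2 and 3. The beta crystallin gene crybgx shows this in 1 gene, with 205, 1924 and 170.5 in the CC, 1504, 660.4 and 396 at 0.0483 µM and 1929, 433 and 259.6 at 0.00483 µM. The lens filament gene BFSP1 was at 6.75, 92.7 and 2.09 in the CC, 119.9, 17.2 and 14.8 at 0.0483 µM and 157, 12.6 and 13.7 at 0.00483 µM. Replicate 1 of each exposed group and replicate 2 of the CC were high, and the other 6 libraries were low. The 18 tested lens markers had a median log2 difference of 0.26 with 9 libraries, 18 of them above 0, and of 0.79 without replicate 2 of the CC. The part of any other difference of that library in its lens level was not tested.

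Digestive enzyme genes of the exocrine pancreas were high in some of the same libraries as the lens genes. Their sum over 21 genes was 2617, 12293 and 1203 in the CC, 6606, 4607 and 2709 at 0.0483 µM and 12573, 2458 and 3061 at 0.00483 µM, a wide spread within every group. The trypsin gene prss1 was at 972, 4216 and 472 in the CC, 2135, 1847 and 1048 at 0.0483 µM and 3904, 932 and 1101 at 0.00483 µM. The same libraries were high as for the crystallins, namely replicate 2 of the CC and replicate 1 at 0.00483 µM. The log2 difference of prss1 was 0.36 with 9 libraries and 1.38 without replicate 2 of the CC, where its limma adjusted p-value was 0.0252. The 15 tested pancreas genes had a median of 0.38 with 9 libraries, 15 of them above 0, and of 1.48 without that library. Of the 2 lower genes, krt4, an epidermal keratin gene, was at 11332, 6857 and 14792 in the CC and 5822 to 11999, with a median of 10899.8, in the exposed libraries, and agr1 at 177, 65.9 and 157 and 79.9 to 117, with a median of 107. Replicate 2 of the CC was the lowest CC library for both. Markers of other tissues shifted with that library too. Skeletal muscle markers summed to 983087 in it, against 574734 and 651777 in CC replicates 1 and 3. Without it, all 20 tested muscle markers were above 0 and 0 of 20 epidermis markers were, beside 8117 of 17150 genes. With all 9 libraries these counts were 8 and 4, beside 8439 of 17151. These 2 lists were picked out after their values were seen.

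**Figure D4:**
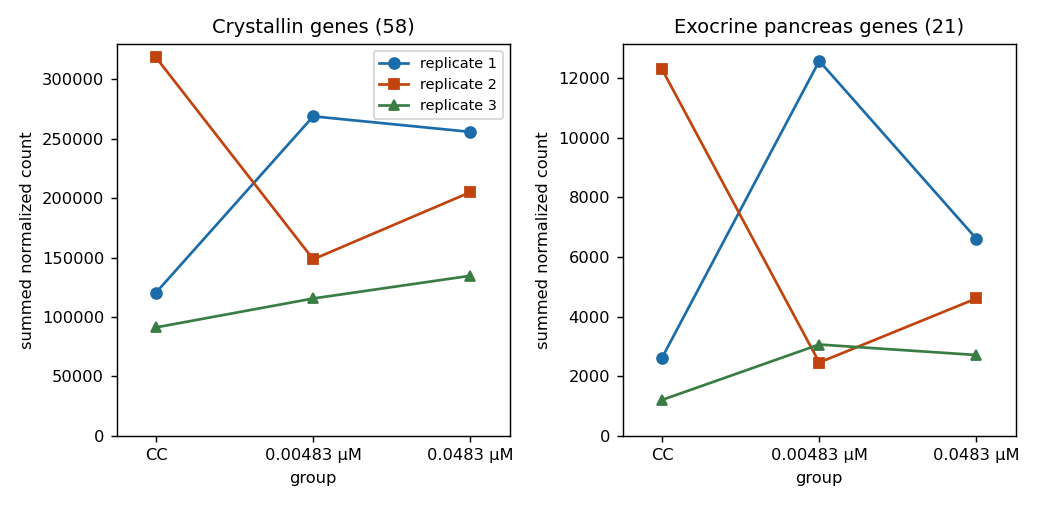
Summed normalized counts of 58 crystallin genes and 21 exocrine pancreas genes in each of the 9 libraries, with lines joining libraries of the same replicate number. The exposed libraries lie above the CC in replicates 1 and 3 and below it in replicate 2, where the CC reaches 318458 for the crystallins.

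Of the photoreceptor genes, 1 was among the 53. The green cone opsin gene opn1mw2 was at 476, 655 and 488 in the CC, 950.2, 778 and 823 at 0.0483 µM and 896, 568 and 579.9 at 0.00483 µM. All 3 libraries at 0.0483 µM were above the CC, and the difference at that concentration was 0.67 (95% interval 0.30 to 1.03), with a limma adjusted p-value of 0.999. It passed without replicate 2 of the CC, at 0.90 and a limma adjusted p-value of 0.0190, and without replicate 2 of all groups, at 0.88 and 0.0433. Neither fit had a CC library in replicate 2, so the second pass was not a separate check. Rod opsin, rho, was at 11664, 19778 and 10903 in the CC and 11569.5 to 15191, with a median of 13968, in the exposed libraries, and differed by −0.00. Of 24 tested photoreceptor markers, 21 were above 0, with a median of 0.15 that became 0.35 without replicate 2 of the CC.

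The exposed groups, which differ 10-fold in concentration, were also compared with each other in the same fit of 9 libraries, in which the CC adds to the estimates of spread and block. With limma 0 of 17151 genes were called (0%) and 419 had an unadjusted p-value under 0.05. The number was 0 in edgeR, with 409 genes under an unadjusted 0.05, and 1 in DESeq2, the sparse gene ugt5g2 again, with 165. The 5 genes with the lowest p-values among those at least 1.5-fold lower at 0.0483 than at 0.00483 µM were LCT, rdh1, slco1d1, APOB and METRN. LCT, the gene for the gut enzyme lactase, was at 8.93, 30.4 and 44.4 at 0.0483 µM and 39.4, 70.22 and 93.8 at 0.00483 µM, with 11.6, 58.6 and 60.2 in the CC. Within each replicate number the library at 0.00483 µM was the higher one, by a log2 difference of −1.42 (0.0483 minus 0.00483 µM, 95% interval −2.03 to −0.81). APOB (ENSDARG00000042780) encodes a protein of lipoprotein particles. It was at 28.1, 31.4 and 68.7 at 0.0483 µM and 50.1, 77.6 and 184 at 0.00483 µM, with 36.7, 45.1 and 51.4 in the CC. It was higher at 0.00483 µM in each replicate number, and most so in replicate 3, and its log2 difference from the CC at 0.00483 µM was 1.01. The retinol dehydrogenase gene rdh1 differed by −1.09, the organic anion transporter gene slco1d1 by −0.62 and METRN by −0.78. In the other direction actc1a, a cardiac actin gene, was at 593, 603 and 809 at 0.0483 µM and 549.7, 272 and 548 at 0.00483 µM and differed by 0.60. ENSDARG00000098983 (0.74), ANAPC5 (0.92), PRELP (0.73) and DHX57 (0.76) were the others.

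Liver and gut markers were mostly higher at 0.00483 than at 0.0483 µM, without passing the test. All 24 tested liver markers had log2 differences below 0 between 0.0483 and 0.00483 µM, with a median of −0.46, and 16 of 20 tested gut markers, also with a median of −0.46, beside 8535 of 17151 genes and a median of 0.00 over all genes. With limma 0 of them were called. The summed liver level was 11537, 13252 and 14985 at 0.0483 µM, 12892, 13931 and 23611 at 0.00483 µM and 13915, 15461 and 14495 in the CC. Replicate 3 at 0.00483 µM was the highest of the 9, and the other 8 lay between 11537 and 15461. Without that library, 17 of 24 liver markers were below 0 with a median of −0.07, and 17 of 20 gut markers with a median of −0.32, so the liver difference rested mostly on 1 library. Among single liver genes, apoa2 was at 1792, 2221 and 4336 at 0.00483 µM and 1200.2, 2085 and 2379 at 0.0483 µM, and itih3b.1 at 44.7, 54.5 and 191 and 21.7, 49.6 and 97.3. The gut chitinase gene chia.2 was at 2519, 2530.1 and 2521 at 0.0483 µM and 3655, 2835 and 5168 at 0.00483 µM, against 1472, 5148 and 3817 in the CC. The CC ran from below the lowest exposed library to near the highest. Without replicate 3 at 0.00483 µM, the difference was −1.57 for LCT, −0.90 for APOB and −0.83 for rdh1, and none passed.

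A different split ran by replicate number. The gene fkbp5, which encodes an Hsp90 partner of the glucocorticoid receptor and was singled out after its values were seen, was at 1470.2, 2090.1 and 1650.0 in the CC, 454, 2491 and 2127 at 0.0483 µM and 380.3, 1994 and 1830.1 at 0.00483 µM. Both exposed libraries of replicate 1 were far below the other 7 libraries, and those of replicates 2 and 3 were at or above the CC of their number except for replicate 2 at 0.00483 µM. The thyroid and glucocorticoid target gene klf9 was at 359.8, 422 and 496 in the CC, 228, 666 and 545 at 0.0483 µM and 148, 544 and 502 at 0.00483 µM. It showed the same order, with both exposed libraries of replicate 1 lowest. The clock repressor gene nr1d2a was at 1803, 1845 and 2017 in the CC, 1207, 2735 and 2640.1 at 0.0483 µM and 1257, 2247 and 2361 at 0.00483 µM, lower than the CC in replicate 1 and higher in replicates 2 and 3. The pooled log2 differences were −0.49 for fkbp5 (95% interval −1.14 to 0.16), −0.13 for klf9 (−0.59 to 0.34) and 0.06 for nr1d2a (−0.27 to 0.40).

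**Figure D5:**
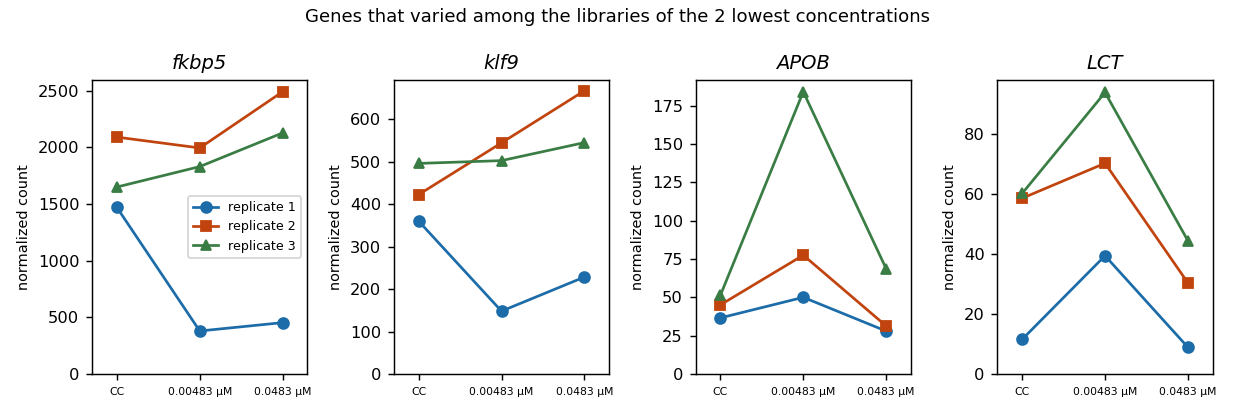
Normalized counts of fkbp5, klf9, APOB (ENSDARG00000042780) and LCT in the CC and at the 2 lowest concentrations, with lines joining libraries of the same replicate number. For fkbp5 and klf9 the exposed libraries of replicate 1 are the lowest of the 9, and for APOB and LCT the library at 0.00483 µM is the highest within each replicate number.

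The 2 lowest concentrations were last compared with higher ones. In a limma fit over 17 BPA libraries, without replicate 3 at 4.83 µM, which stands apart in the series, 0 of 17273 genes (0%) differed between the pooled 2 lowest and 0.483 µM, with 700 under an unadjusted p-value of 0.05. Against 48.3 µM, 4376 genes were called (25.3%), of which 2479 were higher and 1897 lower at the 2 lowest concentrations. Of 36 stress genes 27 were called, 23 of them lower at the 2 lowest concentrations, with a median log2 difference of −1.08. Of 14 globin and heme genes 13 were lower, with a median of −2.56, and of 34 GABA genes 26 were higher and 1 lower, with a median of 0.89. Of 15 genes on the thyroid list, which includes parathyroid genes, 9 were higher and 0 lower, and of 24 photoreceptor markers 19 were higher. Single genes showed the size, with log2 differences of −3.87 for hsp70l, −3.99 for atf3, 1.19 for trh, −0.85 for EBAG9 and 1.70 for klf9, with limma adjusted p-values of 3.5e-10, 8.16e-12, 9.37e-05, 6.69e-06 and 5.87e-05. The lens markers were higher for 13 of 18, a group whose level among the CC libraries also varied widely.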

How the data were processed

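RNA from 9 pools of larvae was read as mRNA libraries, 3 each at 0.0483 µM, 0.00483 µM and CC. The authors used cutadapt for trimming, STAR for alignment to GRCz11 and DESeq2 for scaling, and deposited a signal on a linear scale, in which counts are divided by a size factor of each library. Multiplied back, 100% of the values were whole within 0.001, which gave 6056692 to 16520859 reads a library. The 18 libraries of the other chemical were not used here.

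Names were found for 24011 of 25856 genes. The reference table gives capital symbols for some copies, some of which are printed with identifiers. A capital symbol does not always tell which copy is meant. Gene sequences and coordinates were not used here. Members and gene lists were chosen with earlier results of these data known.

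No sample was unassigned. Tests used limma 3.58.1 (R 4.3.3) on log2(value + 1), which understates changes of low genes, with genes at a mean of 10 or more and the replicate number as a block. The block follows the authors' DESeq2 design and their separate clutches. Deviations of same-numbered libraries had a median correlation of 0.195 across genes, against −0.128 for other numbers. Single pairs did not all keep this order. Replicate 2 at 0.00483 µM had 0.015 with replicate 2 of the CC, and replicate 1 at 0.00483 µM had 0.153 with that CC library. Deviations cancel out within each group, so the medians are not independent of each other. Each library was counted as a replicate, and p-values set a difference against the spread left between these libraries after the block. Alternatives changed the pseudocount (10), the filter (none, or 50), the block, the libraries in the fit, the scaling (TMM) and the test (edgeR 4.0.16, DESeq2 1.42.0, limma treat), and left out each replicate and each library. Named genes were the 10 called with the largest changes in each direction. Where fewer were called, up to 5 with the lowest p-value and at least 1.5-fold were taken. Called list members, the member of each functional list with the lowest p-value and a fixed set of hormone, neuron and stress genes were added. One of these genes is not reported here. Other genes are named as chosen after their values were seen. Scripts were tested on simulated data. Figures were drawn with matplotlib 3.10.9.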

Additional observations from a re-analysis of the deposited data

How the results depend on the processing

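The numbers called against the CC and between the concentrations stayed at 0 with a pseudocount of 10, without a filter or with a mean of at least 50, with TMM scaling, with limma treat, in edgeR, and in fits over 18 or 17 libraries. DESeq2 called 1 gene at 0.00483 µM and 1 between the concentrations. Leaving out 1 replicate number or 1 library in turn gave between 0 and 58 genes pooled, 0 and 49 at 0.0483 µM and 0 and 37 at 0.00483 µM. Numbers above 0 came only without replicate 2, of the CC alone (53, 49 and 8) or of all groups (58, 30 and 37). The lists of 53 and 58 genes shared 50, which is 94.3% of the first and 86.2% of the second. With the block, both fits took the pooled difference from replicates 1 and 3 alone, so this overlap was not a separate check. Without the replicate block, 0 genes were called in each comparison, with 319, 273, 274 and 265 under an unadjusted p-value of 0.05 for pooled, 0.0483 µM, 0.00483 µM and their difference. The block changed no call in these comparisons. Without it, 4150 genes were called against 48.3 µM, beside 4376 with it. Against 48.3 µM the count ran from 3193 with all 18 libraries, 1534 higher and 1659 lower at the 2 lowest concentrations, to 4376, and from 3619 to 4286 without replicate 1, 2 or 3. These last alternatives were chosen after seeing the data. Of 1404 values for 65 named genes, 91 moved by more than the standard error of the main fitted difference. A further 2 came past the threshold, both for opn1mw2 and with the sign of the main fit. For values called in neither fit, a change of sign was not counted. Depth limits genes under a mean of 50, where 18.3% of intervals lay inside 1.5-fold.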

Other observations

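Markers of cartilage and bone have not been described so far. With limma 0 of 21 tested were called, 16 had log2 differences above 0, with a median of 0.13, and 5 had an unadjusted p-value under 0.05, beside 8439 of 17151 genes above 0 and 615 under 0.05. These 5 were the cartilage collagen genes COL2A1 (ENSDARG00000069093), col9a1b, COL9A2 and COL11A2 and the proteoglycan gene epyc. The level of col9a1b was 204, 246 and 99.0 in the CC, 216, 585 and 191 at 0.0483 µM and 158, 385 and 391 at 0.00483 µM, with a log2 difference of 0.75 (unadjusted limma p-value 0.0262). That of epyc was 241, 268 and 171 in the CC and 248 to 411, with a median of 306, in the exposed libraries, with a difference of 0.46 (95% interval 0.14 to 0.78). The other COL2A1 gene (ENSDARG00000011407) was at 1942, 2072 and 1732 in the CC and 1645 to 2105, with a median of 1986, in the exposed libraries, with a difference of −0.00 (95% interval −0.16 to 0.16). Summed over 28 markers, the level was 16649, 19132 and 15090 in the CC, 17709, 20118 and 17565 at 0.0483 µM and 13849, 19341 and 16126 at 0.00483 µM, so 5 of the 6 exposed libraries were above the CC library of their number and replicate 1 at 0.00483 µM was below it. The genes were picked out after their values were seen.

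When each exposed library was set against the CC library of its own number, all 6 differences were positive for 517 of 17151 genes (3.01%) and negative for 593 (3.46%). All 6 were at least 1.5-fold for 1 gene, srcin1b, which was at 6.75, 6.10 and 5.43 in the CC, 12.8, 13.2 and 10.6 at 0.0483 µM and 16.0, 11.5 and 12.6 at 0.00483 µM. Its log2 difference was 0.95 (95% interval 0.32 to 1.58), with a limma adjusted p-value of 0.999, and its level is close to the filter of 10.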
